A study of Drosophila melanogaster with 4 samples.

Results

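Actin filament assembly and turnover genes were followed on 4 spotted cDNA arrays of Drosophila melanogaster embryos collected immediately after laser wounding (0 min). Of 10 genes chosen by name (Act5C, Act42A, chic, tsr, dia, SCAR, wash, Arp2, Arp3 and capt), those with at least 1 array clone assigned to that gene alone in the platform annotation were kept, with values on 3 or more arrays. This left 4 genes, chic, dia, SCAR and wash, read by 6 clones, out of 8210 genes measured in the same way. For the other 6 genes (Act5C, Act42A, tsr, Arp2, Arp3 and capt) no single-gene clone was found in the annotation used here, and their levels were not analysed here.

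On each array, a pool of laser wounded embryos was compared with a pool of unwounded ones, both aged 0 to 1 h, dechorionated by hand and kept in halocarbon oil. Both pools carried sGMCA, a GFP reporter of cortical actin that holds part of moesin and is driven by the spaghetti squash promoter, and both were frozen right after recovery. The arrays are named experiments 3, 4, 7 and 8 after their labels. The wounded pool was labelled with Cy3 in experiments 3, 7 and 8, and with Cy5 in experiment 4, the dye swap. The values are 1 log2 ratio per clone and array, and the sources used here do not say if it sets Cy5 over Cy3 or the wounded over the unwounded pool. With the wounded pool in Cy3 on each, experiments 3, 7 and 8 have the same direction under either reading. Sizes are therefore reported without a direction, once with experiment 4 turned to match the others (the reading as Cy5 over Cy3) and once not turned. Signs given for single arrays are those of the deposited ratio. The 4 experiments are described as independent replicates, but separate cages or cultures are not named. The p-values cover no more than the spread among these 4 arrays, with the variance of each gene moderated over all genes.

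Actin monomers polymerise into filaments that support the cell cortex, and in a wounded syncytial embryo a ring of actin and myosin gathers at the edge of the wound and closes it. Profilin, the product of chic, binds actin monomers and feeds them to growing filament ends. Formins such as Diaphanous, the product of dia, start and elongate unbranched filaments. SCAR and Wash are activators of the Arp2/3 complex, which starts branched filaments, with SCAR acting at the cell cortex and Wash best known on endosomes. In the syncytial embryo these proteins and their mRNAs are largely supplied by the mother. The question put to these arrays is whether mRNA levels of such genes differ at the moment of wounding.

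None of the 4 genes differed between wounded and unwounded embryos by the limits of the study, a false discovery rate of 5% and a change of at least 1.5-fold (limma adjusted p = 0.998 for each gene with experiment 4 turned and 0.997 with it not turned). This was also the case for all 8210 genes (0%). At an unadjusted p under 0.05, 0 of the 4 genes passed under either reading, beside 4.91% of all genes with experiment 4 turned and 2.5% with it not turned. The 95% confidence interval that limma gave for the mean did not reach 1.5-fold, up or down, for any of the 4 genes, again under both readings. This held for 92.2% of all genes with experiment 4 turned and 92% with it not turned, so that 4 of 4 genes is close to the share over all genes. The intervals are per gene and not adjusted for the number of genes, and they bound only a change that all arrays share.

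chic was read by the clones LD15851 and LD19369. Averaged over both clones, its log2 ratios were -0.06, -0.19, -0.03 and 0.48 in experiments 3, 4, 7 and 8. As deposited, experiment 8 alone lay well above 0, and the other 3 arrays lay slightly below it. With experiment 4 turned, that array was above 0 as well, at a smaller size than experiment 8. In experiment 8 the ratio of chic was higher than that of 97.4% of all genes. Both clones gave this array their highest value, 0.60 for LD15851 and 0.36 for LD19369, while in experiment 4 they read -0.29 and -0.08. The clones differed by 0.024 to 0.239 on the 4 arrays, against medians of 0.12 to 0.133 over the 1091 to 1107 genes that also have 2 clones. The mean of chic was 0.14 in size with experiment 4 turned (n = 4 arrays, SD 0.25, adjusted p = 0.998 by limma), and the end of its interval farther from 0 was at 1.32-fold. With experiment 4 not turned the mean was 0.05 in size (n = 4 arrays, SD 0.294, adjusted p = 0.997 by limma), with a bound of 1.27-fold.

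dia was read by 1 clone, LD14246. Its log2 ratios were 0.03, 0.23, -0.0024 and -0.47 in experiments 3, 4, 7 and 8. Thus dia was lowest in experiment 8, where chic was highest, and only 3.45% of all genes had a lower ratio there. The mean was 0.17 in size with experiment 4 turned (n = 4 arrays, SD 0.23, adjusted p = 0.998 by limma) and bounded at 1.33-fold. Not turning experiment 4 gave a mean of 0.05 (n = 4 arrays, SD 0.293, adjusted p = 0.997 by limma) and bounded at 1.28-fold.

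wash was read by the clone RH66493. Its log2 ratios were -0.08, 0.08, 0.01 and -0.68 in experiments 3, 4, 7 and 8. The first 3 of these arrays lay within 1.06-fold of no difference, whereas experiment 8 reached 1.60-fold, a size that 2.12% of all genes equalled or passed on that array. This was the only value of the 4 genes beyond 1.5-fold after clones of a gene were averaged. Taken alone, the chic clone LD15851 also passed that size, at 0.60 in experiment 8. Over all genes, 5.46%, 2.56%, 5.06% and 3.31% reached that size in experiments 3, 4, 7 and 8. A further clone, RH08057, which the annotation assigns to wash and also to CG7322 and which was therefore left out, read 0.03, 0.17, 0.26 and -0.26. It was also lowest in experiment 8, at a smaller size than RH66493. The mean of wash was 0.21 in size with experiment 4 turned (n = 4 arrays, SD 0.318, adjusted p = 0.998 by limma) and 0.17 with it not turned (n = 4 arrays, SD 0.347, adjusted p = 0.997 by limma). Its bounds, 1.43-fold and 1.42-fold, were the widest of the 4 genes. They passed 1.5-fold when only experiments 3, 7 and 8 were used, with a bound of 1.60-fold, where 84.9% of all genes stayed within 1.5-fold. They were also wider than 1.5-fold without experiment 3 (1.55-fold) and without experiment 7 (1.58-fold), and narrowed to 1.20-fold without experiment 8.

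**Figure D1:**
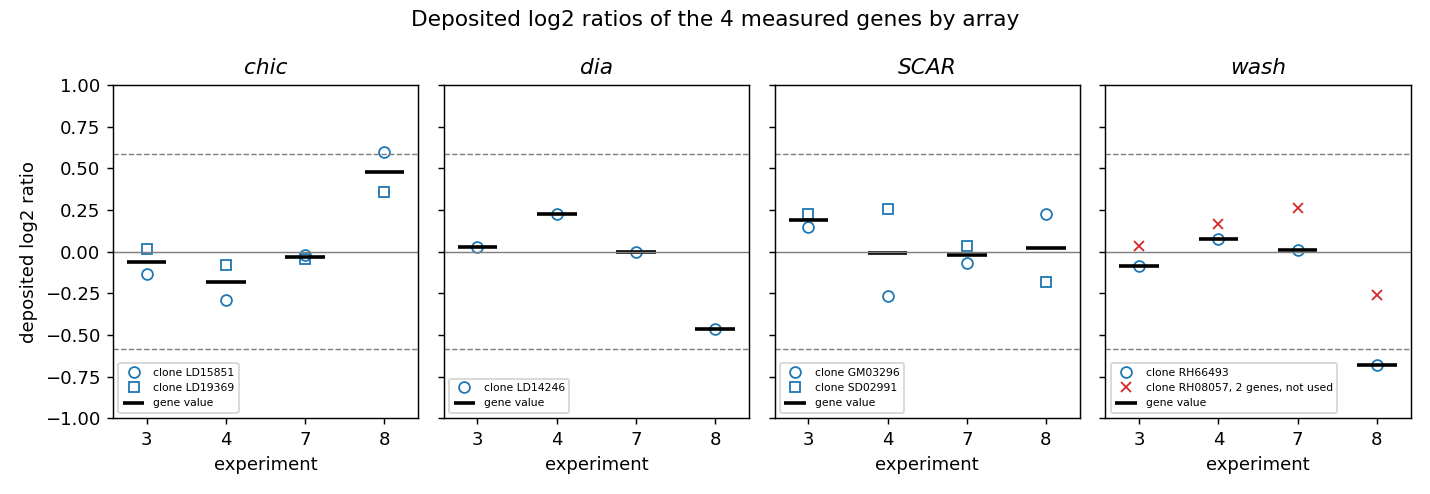
Deposited log2 ratio (vertical axis) of chic, dia, SCAR and wash in experiments 3, 4, 7 and 8 (horizontal axis). Open symbols are single clones, black bars the value used for the gene, red crosses a clone assigned to wash and CG7322 that was not used, and dashed lines 1.5-fold. In experiment 8 chic lies at 0.48, dia at -0.47 and wash at -0.68, while SCAR lies at 0.02.

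SCAR was the gene with the smallest spread between arrays. Its log2 ratios, averaged over the clones GM03296 and SD02991, were 0.19, -0.0066, -0.02 and 0.02 in experiments 3, 4, 7 and 8. Only experiment 3 lay apart from 0, at a size of 1.14-fold. Beneath these averages the clones disagreed. GM03296 read 0.15, -0.27, -0.07 and 0.22, and SD02991 read 0.23, 0.26, 0.03 and -0.18, so that the clones had opposite signs in experiments 4, 7 and 8. In experiment 4 they differed by 0.524, more than the difference in 94.1% of genes with 2 clones, and in experiment 8 by 0.407, more than in 85% of them. The mean of SCAR was 0.05 in size with experiment 4 turned (n = 4 arrays, SD 0.0935, adjusted p = 0.998 by limma) and also 0.05 with it not turned (n = 4 arrays, SD 0.0957, adjusted p = 0.997 by limma). Both intervals were bounded at 1.16-fold. Fitted alone with experiment 4 turned, GM03296 was bounded at 1.27-fold and SD02991 at 1.22-fold. All 6 clones were bounded within 1.5-fold when fitted alone, beside 90.7% of all clones, and 0 of the 6 had an unadjusted p under 0.05, beside 5.87%. The narrow interval of SCAR thus rests in part on opposite values that cancel in the average.

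**Figure D2:**
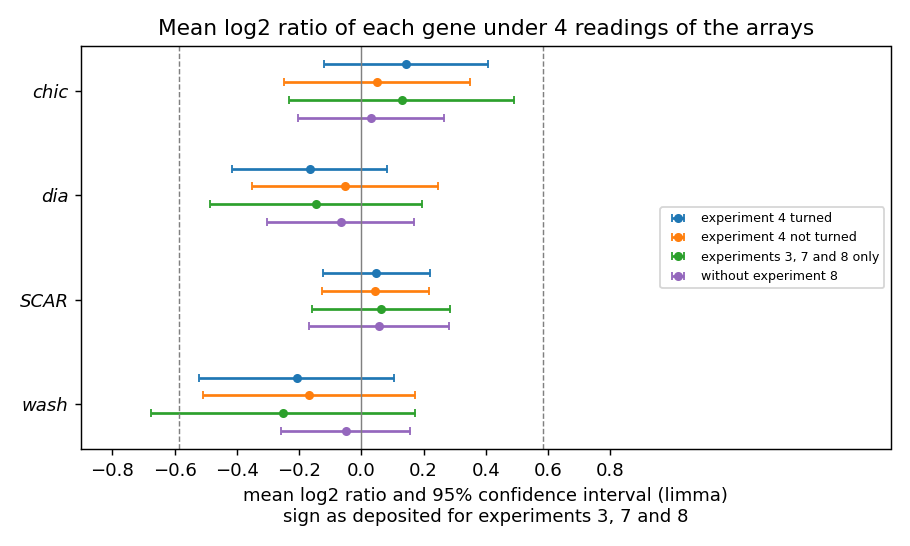
Mean log2 ratio of each gene with its 95% confidence interval from limma (horizontal axis, sign as deposited for experiments 3, 7 and 8), with experiment 4 turned, not turned, left out, and without experiment 8; dashed lines mark 1.5-fold. Every interval drawn spans 0, and only that of wash over experiments 3, 7 and 8 crosses a dashed line, with a bound of 1.60-fold.

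The 95% intervals of the 4 genes were not equally wide. The half-width of the 95% interval with experiment 4 turned was 0.171 for SCAR, 0.249 for dia, 0.263 for chic and 0.312 for wash on the log2 scale, beside a median of 0.212 over all genes. Thus the interval of SCAR was narrower than that of most genes, with 16.9% of genes narrower still, whereas 67.2%, 71.7% and 82.1% of genes had narrower intervals than dia, chic and wash. With experiment 4 not turned the half-widths were 0.172, 0.298, 0.299 and 0.34. SCAR and chic were averages of 2 clones, whereas dia and wash were read by 1 clone each. Fitted alone with experiment 4 turned, the SCAR clones had wider intervals than their average. Their half-widths were 0.203 (GM03296) and 0.245 (SD02991). The means themselves were larger in size than the median over all genes, 0.0649, for chic, dia and wash with experiment 4 turned, and for wash alone with experiment 4 not turned (median 0.0639). No gene had the same sign on all 4 arrays under either reading, beside 12% of all genes with experiment 4 turned and 10% with it not turned. When each gene was fitted with its own variance and not one moderated over all genes, the bound of wash was 1.64-fold. Those of the other 3 genes stayed within 1.5-fold, at 1.45-fold for chic, 1.45-fold for dia and 1.15-fold for SCAR. With a term for the dye the bound of wash was 1.504-fold.

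**Figure D3:**
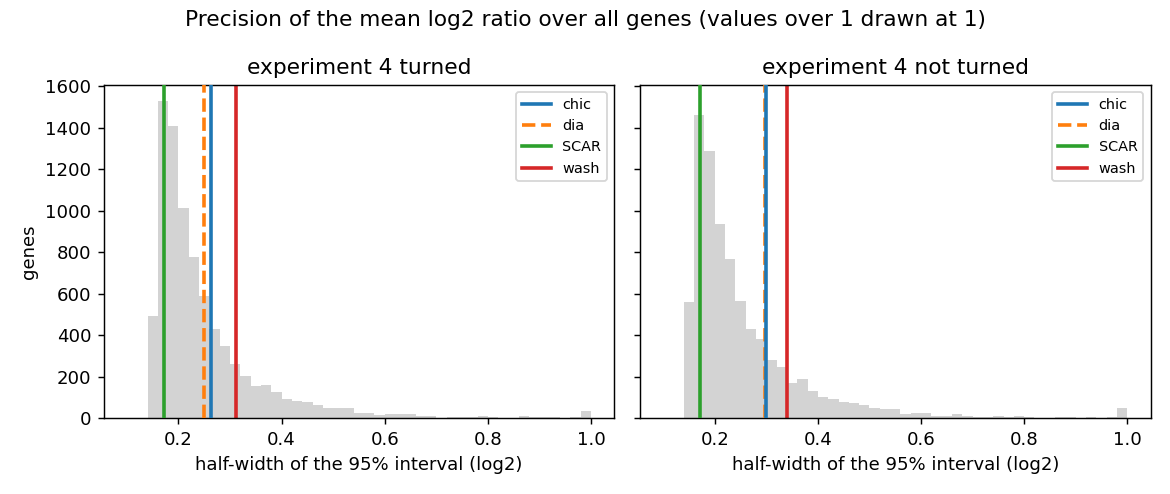
Number of genes (vertical axis) by the half-width of the 95% interval of their mean log2 ratio (horizontal axis), over 8210 genes, with experiment 4 turned (left) and not turned (right). Vertical lines mark SCAR at 0.171 and 0.172, dia at 0.249 and 0.298, chic at 0.263 and 0.299, and wash at 0.312 and 0.34, where the line of chic covers that of dia on the right and half-widths over 1 are drawn at 1.

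The ratio farthest from 0 was that of experiment 8 in 3 of the 4 genes, chic, dia and wash, beside 19.8% of all genes. For SCAR it was that of experiment 3, at 0.19. Without experiment 8, the largest ratio of any of the 4 genes was 0.23 in size, that of dia in experiment 4. Over all clones, the deposited ratios of experiment 8 had Pearson correlations of -0.0086, -0.14 and -0.27 with experiments 3, 4 and 7. Experiments 3 and 7 correlated at 0.30, experiments 3 and 4 at 0.05, and experiments 4 and 7 at -0.13. Over the arrays dia and wash had a root mean square difference of 0.143 on the log2 scale. Their differences from chic were 0.517 for dia and 0.595 for wash. These distances were not set against those of other gene pairs. wash had the largest range over the arrays, 0.758. The genes with ratios most like those of wash over the 4 arrays, by the root mean square difference, were Dhc1 (0.0577), Acbp5 (0.0745) and Hecw (0.0752). Their ratios in experiment 8, -0.78, -0.54 and -0.59, follow from that choice and are no separate result.

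Spot error within an array was read from 32 spots of genomic DNA printed on each array. Their standard deviation was 0.12, 0.139, 0.135 and 0.133 in experiments 3, 4, 7 and 8. In experiment 8 these spots ran from -0.39 to 0.14 around a mean of -0.11, and in experiment 3 their mean was -0.32, so that they were not centred on 0. In experiment 8 the values of dia and wash were below the range of these spots, and both chic clones were above it. RH08057, the clone left out of wash, was within that range at -0.26. The genomic spots hold mixed sequence, and they give a scale for the spread between spots and not an error of these clones.

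Marker genes also differed between the arrays. In experiment 8 the 12 measured early zygotic genes, which are transcribed from the embryo's own genome as it ages, had a mean ratio of 0.30, with 9 of 12 above 0, and 14 maternal genes had a mean of -0.13, with 5 of 14 above 0. In experiment 7 the means were -0.46 (1 of 12 above 0) and 0.08 (7 of 14 above 0), in experiment 3 they were -0.22 (1 of 12) and 0.11 (10 of 14), and in experiment 4 they were 0.08 (6 of 12) and -0.07 (4 of 14). The mean of the zygotic genes thus lay on opposite sides of 0 in experiments 7 and 8. In experiment 3 the 7 muscle genes had a mean of 1.36, with Mlc2, a myosin light chain gene, at 3.46 and Mlp60A, a muscle LIM protein gene, at 2.88. Over the muscle genes the ratio ran from -0.24 to 3.46 in experiment 3, from 0.27 to 0.68 in experiment 4, from -0.25 to 0.77 in experiment 7 and from -0.71 to 0.29 in experiment 8. Of 13 yolk and eggshell genes only Yp1, Yp2 and Yp3 were measured, with means of -0.32, 0.14, -0.33 and 0.01 in experiments 3, 4, 7 and 8. In pooled embryos, fewer cells or embryos of a kind cannot be told apart from less RNA in each. The part of these differences in the values of chic, dia, SCAR and wash was not tested, and ratios carry no levels, so the stage of the pools could not be checked against defining markers.

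**Figure D4:**
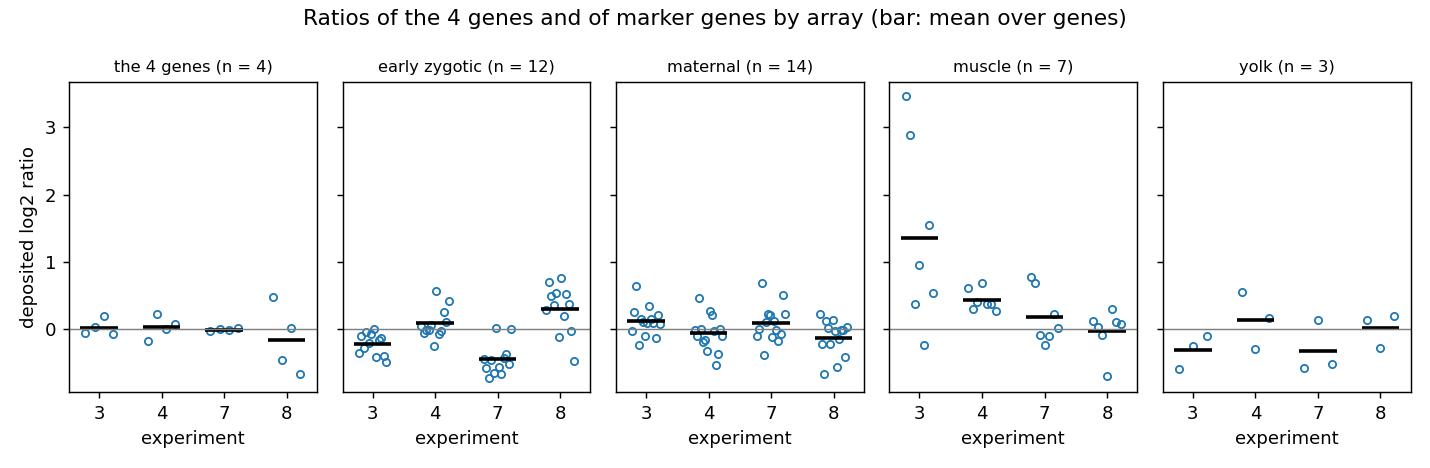
Deposited log2 ratio (vertical axis) by experiment (horizontal axis) of chic, dia, SCAR and wash and of genes that mark the early zygotic genome, the maternal supply, muscle and yolk; each circle is a gene and each bar the mean over genes. The zygotic mean lies at -0.46 in experiment 7 and 0.30 in experiment 8, and the muscle mean at 1.36 in experiment 3.

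The cytoplasmic actins could be looked at through a single clone. LD18090 has no entry in the annotation, and a table of the study lists it under both Act5C and Act42A, which encode nearly identical cytoplasmic actins, so it names neither and was left out of the counts above. Its log2 ratios were 0.09, -0.04, -0.15 and 0.12 in experiments 3, 4, 7 and 8. All 4 arrays lay near 0, on both sides of it. The mean was 0.03 in size with experiment 4 turned (limma adjusted p = 0.999 over 11848 clones, n = 4 arrays), with a bound of 1.16-fold, and 0.0074 in size with it not turned (limma adjusted p = 0.997), with a bound of 1.15-fold. Among other actin genes, which encode actins of muscle, Act79B, Act87E and Act88F were measured. Act88F, the actin of flight muscle, had ratios of -0.15, 0.38, -0.54 and -0.15, with a mean of 0.30 in size (n = 4 arrays, SD 0.19, adjusted p = 0.912 by limma) with experiment 4 turned and 0.12 with it not turned. Genes of this family are similar in sequence, and cDNA clones of one may also bind the mRNA of another.

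Other genes of actin assembly gave the setting in which to read these values. Of 63 further genes in 8 lists, 47 were measured, and 0 were called under either reading. Before adjustment, 5 of the 47 had a limma p under 0.05 with experiment 4 turned (Act88F, Whamy, DAAM, Fhos and beta-Spec), beside 4.91% of all genes, and 0 with it not turned, beside 2.5%. The intervals of 44 of the 47 lay within 1.5-fold under both readings, beside 92.2% and 92% of all genes. The median size of their means was 0.0587 with experiment 4 turned and 0.0601 with it not turned, near those over all genes, 0.0649 and 0.0639.

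The measured subunit genes of the Arp2/3 complex, which SCAR and Wash act on, lay near 0. Arp2, Arp3 and Arpc3A had no single-gene clone and were not measured. Arpc1, Arpc2, Arpc3B, Arpc4 and Arpc5 had means of at most 0.0483 in size with experiment 4 turned. The single ratio farthest from 0 among them was 0.21, that of Arpc3B in experiment 7. All 5 were bounded within 1.5-fold under both readings, with the widest bound at 1.17-fold (Arpc3B) with experiment 4 turned and at 1.20-fold (Arpc1) with it not turned. Of the partners of SCAR in its regulatory complex, HSPC300 was not measured. Abi, Hem and Cyfip (the current symbol of Sra-1) had means of 0.02, 0.02 and 0.01 in size with experiment 4 turned. Their bounds were 1.14-fold, 1.15-fold and 1.13-fold. Each of these partners was read by 1 clone, whereas SCAR was averaged over 2 clones that disagreed.

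The measured partners of Wash were less uniform, and its partners Strump and SWIP were not measured. FAM21, a subunit of the WASH complex, had ratios of 0.22, 0.11, 0.12 and 0.05 in experiments 3, 4, 7 and 8. Its mean was 0.07 in size with experiment 4 turned and 0.12 with it not turned, with bounds of 1.20-fold and 1.22-fold. CCDC53, another subunit of that complex, had ratios of -0.12, -0.11, 0.94 and -0.89. Like wash, CCDC53 was low in experiment 8, but it was high in experiment 7, where wash was at 0.01. Its mean was 0.01 in size with experiment 4 turned and its bound 1.60-fold, so it is among the 3 of 47 genes not bounded within 1.5-fold. FAM21 and CCDC53 were singled out after their values were seen. Whamy, a WASp-family protein gene, had ratios of -0.15, 0.24, -0.17 and -0.20, with a mean of 0.19 in size (n = 4 arrays, SD 0.0416, adjusted p = 0.963 by limma), and of 0.07 with experiment 4 not turned.

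Among the formins, the class to which dia belongs, the largest mean was that of capu. capu, a formin gene of the oocyte, had ratios of -2.61, 0.15 and -0.21 in experiments 3, 4 and 7 and none in experiment 8. Its mean over 3 arrays was 0.99 in size, the largest of the 47 genes, and it rested on experiment 3 (limma adjusted p = 0.998, bound 4.96-fold). DAAM, another formin gene, had ratios of -0.29, 0.04, -0.20 and -0.25, with a mean of 0.20 in size (n = 4 arrays, SD 0.111, adjusted p = 0.993 by limma) and 0.18 with experiment 4 not turned. Fhos, also a formin gene, had ratios of -0.16, 0.46, -0.31 and -0.03, and means of 0.24 (adjusted p = 0.993 by limma, n = 4 arrays) and 0.0086 in size. Girdin, an actin-binding protein gene named here after its values were seen since the study pairs it with profilin, had ratios of -0.19, -0.31, -0.28 and 0.40. As deposited, experiment 8 alone was above 0, as for chic, and with experiment 4 turned both experiments 4 and 8 were. The mean of Girdin was 0.06 in size with experiment 4 turned (limma adjusted p = 0.998, n = 4 arrays) and 0.09 with it not turned, with bounds of 1.31-fold and 1.34-fold.

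**Figure D5:**
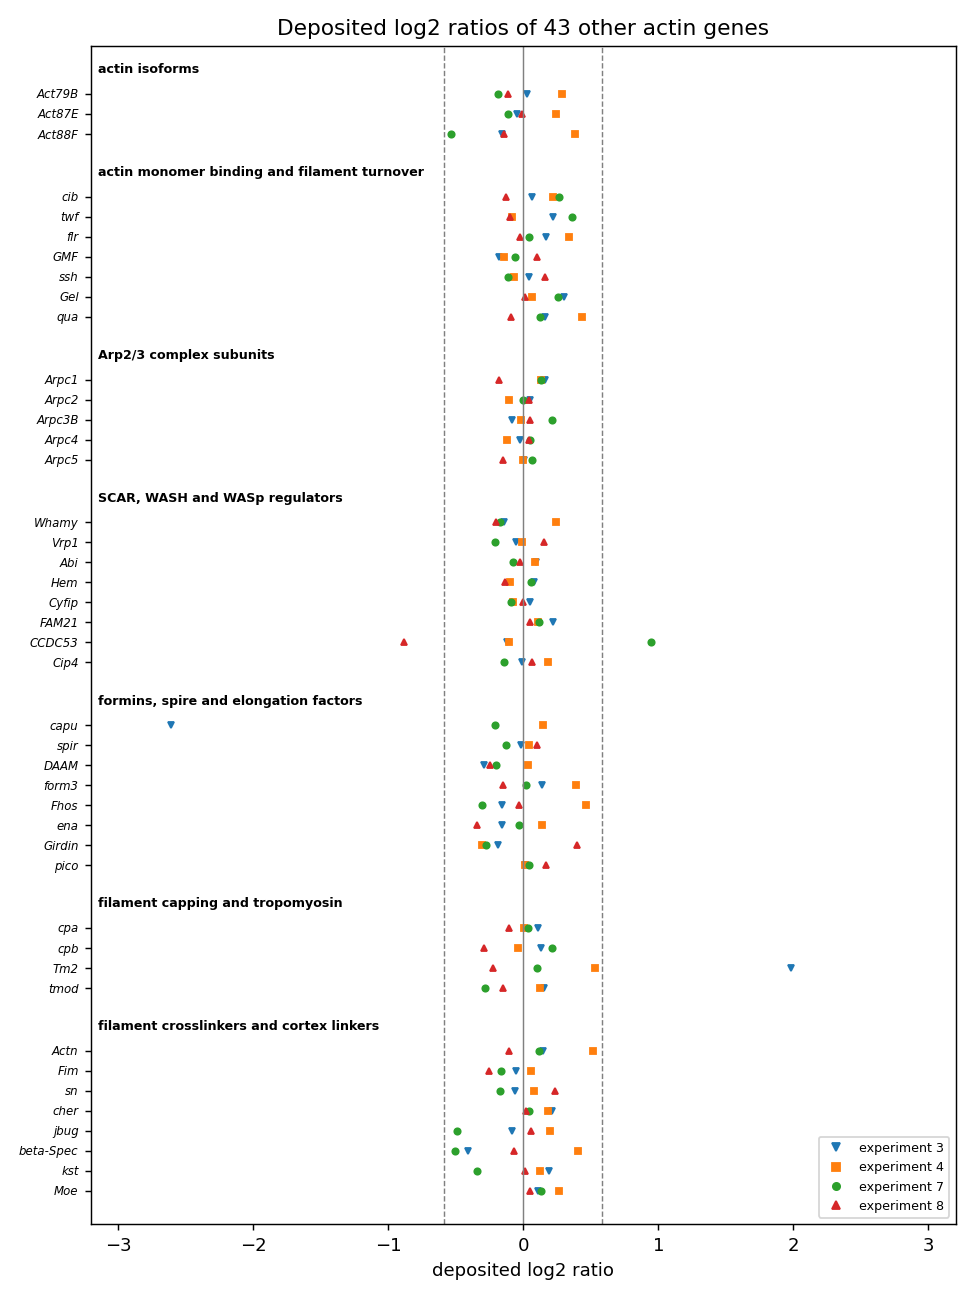
Deposited log2 ratio (horizontal axis) of 43 of the 47 other genes of actin assembly, in 7 lists by role, with a symbol for each experiment; dashed lines mark 1.5-fold. The values farthest from 0 are capu at -2.61 and Tm2 at 1.98, both in experiment 3, followed by CCDC53 at 0.94 in experiment 7 and -0.89 in experiment 8.

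Genes of monomer binding and filament turnover, the roles of the unmeasured tsr and capt, had means with a median size of 0.0398 with experiment 4 turned and of 0.104 with it not turned, beside 0.0649 and 0.0639 over all genes. Single ratios reached 0.43, that of qua in experiment 4. All 7 measured genes (cib, twf, flr, GMF, ssh, Gel and qua) were bounded within 1.5-fold, the widest of them twf at 1.29-fold with experiment 4 turned. GMF, a cofilin-related gene that trims branched filaments, and cib, which encodes an actin monomer-binding protein, had the smallest means of the 47 genes with experiment 4 turned, 5.06e-05 and 0.0053 in size. GMF read -0.18, -0.15, -0.06 and 0.10, and cib read 0.07, 0.22, 0.26 and -0.13, so these means came from ratios of both signs. With experiment 4 not turned, they were 0.07 and 0.10 in size.

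Of the genes that cap, crosslink or anchor filaments, Tm2 stood out in size under both readings, and beta-Spec only with experiment 4 turned. Tm2, a tropomyosin gene of muscle, had ratios of 1.98, 0.53, 0.10 and -0.22 in experiments 3, 4, 7 and 8. It was highest in experiment 3, where the mean of the muscle genes was also highest, at 1.36. Not all muscle genes were high there, with Prm at -0.24 and Act79B, Act87E and Act88F at 0.03, -0.05 and -0.15. The mean of Tm2 was 0.33 in size with experiment 4 turned (limma adjusted p = 0.998, n = 4 arrays). Its bound, 2.49-fold, was beyond 1.5-fold. beta-Spec, which encodes a spectrin of the membrane skeleton, had ratios of -0.41, 0.41, -0.50 and -0.07. Its mean was 0.35 in size with experiment 4 turned (n = 4 arrays, SD 0.191, adjusted p = 0.912 by limma). With experiment 4 not turned it was 0.14, below that of Actn, a crosslinker gene, at 0.17. Moe, which encodes moesin, a linker of filaments to the membrane whose actin-binding part is used in reporters of the sGMCA kind, had ratios of 0.11, 0.26, 0.13 and 0.05. It was named after its values were seen, and since both pools carried the reporter, a clone that also reads the transgene would do so in both channels.

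Both subunits of capping protein, which blocks growth at the filament ends that profilin feeds, were bounded within 1.5-fold, cpa at 1.13-fold and cpb at 1.20-fold with experiment 4 turned.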

How the data were processed

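The authors labelled total RNA of wounded and unwounded embryos with Cy3 and Cy5, hybridised both to FHCRC Fly 12k spotted cDNA arrays, scanned them with a GenePix scanner, removed dim or questionable spots, and deposited log2 ratios normalized within each array by loess in limma (version not given in the sources used here). Spot brightness was not analysed here, so dim and bright clones are weighted alike, and a clone that reads no transcript would also lie near 0. The ratios of 12144 spots were read, and 160 control spots were left out. Of 11984 clones, 9917 had 1 gene in the platform annotation, 625 several and 1442 none listed. Of the former, 9746 were given current symbols through the RefSeq gene table and 171 through the symbol. Clones of a gene were averaged per array, and two-sided tests were run by lmFit and eBayes (limma 3.58.1, R 4.3.3) on the 8210 genes measured on 3 or 4 arrays, adjusted over all of them by Benjamini-Hochberg, with experiment 4 given the opposite sign as the main reading.

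A bound is the end of the 95% interval farther from 0, written as a fold. Medians of the arrays over clones lay between -0.0293 and 0.0056, and 98.4% of clones had a value on all 4 arrays. The fit was tested on simulated data with known changes and noise drawn independently for each gene and array. Differences that many genes share on an array were not part of that test. The members, the lists and the rule for named genes (all members and their clones, other actin genes with an unadjusted p under 0.05 or with the 2 highest or 2 lowest means in size, and the 3 genes nearest to the member of largest range) were chosen with earlier results of these data known. The number of arrays limits the precision. Alternatives covered the direction of experiment 4, each array left out, a dye term, centring and scaling of arrays, missing values, the variance and single clones. Clone sequences were not used here. The genes of 1 of the 8 lists enter the counts over 47 genes but are not reported here one by one.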

Additional observations from a re-analysis of the deposited data

Results flagged for a closer look

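Of 23 genes and lists searched for 1 array far from the other 3, measured as the distance to the nearest array divided by the range over all 4 with experiment 4 turned, 2 stood out, where chance gives about 1 in 20. The log2 ratio of wash in experiment 8, -0.68, lay apart from the other 3 arrays, with a distance of 0.864 of the range. With experiment 4 not turned the distance was 0.787, which is under the limit used. The mean of the 14 maternal genes in experiment 8, -0.13, also stood out, with a distance of 0.835, but not with experiment 4 not turned (0.258).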

How the results depend on the processing

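Each ratio already pairs a wounded with an unwounded pool on 1 array, so that the fit is itself within pairs. No paired analysis was possible beyond this because the arrays form a single group. No gene among chic, dia, SCAR and wash was called, and no mean of a gene changed sign, in the following settings. They were experiment 4 not turned, a dye term, arrays centred or scaled, other limits on missing values, and other variances. The same held without any 1 array with experiment 4 turned. Fitted alone with experiment 4 turned, the SCAR clones had means of opposite sign, 0.14 for GM03296 and -0.05 for SD02991. RH08057, the clone left out of wash, had a mean of -0.03 with experiment 4 turned and 0.05 with it not turned. In settings chosen after seeing the data, which dropped an array while leaving experiment 4 not turned, the sign reversed for chic (-0.0925), dia (0.0848) and wash (0.0013) without experiment 8 and for SCAR (-0.0021) without experiment 3. With experiment 4 turned and an array left out, the sizes of the means ran from 0.03 to 0.21 for chic. The means ran from -0.23 to -0.07 for dia, from 0.0023 to 0.07 for SCAR and from -0.28 to -0.05 for wash (signs as deposited for experiments 3, 7 and 8), and 3 to 4 of the 4 genes were bounded within 1.5-fold. The number of the 47 other actin genes with an unadjusted p under 0.05 was 5 with experiment 4 turned and 0 with it not turned. It was 2, 2, 1 and 3 without experiments 3, 4, 7 and 8, and ran from 0 to 1 without experiment 3, 7 or 8 with experiment 4 not turned. Spot brightness over background was not analysed here, and the number of arrays limits the precision.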
